A study of Mus musculus with 7 samples.

Results

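Untreated mouse aorta was profiled for microRNAs (miRNAs) by quantitative PCR in 4 samples, which are all the samples labelled as control untreated aorta among the 7 samples of the series. The labels give the aortas as biological replicates from female mice aged 6 to 8 weeks of the strain apoE-/-, which lack apolipoprotein E and are used as a model of atherosclerosis. The series title calls the aortic tissue normal, so the strain label is uncertain. The labels do not say whether an aorta came from 1 animal or a pool, nor which segments were taken or whether surrounding fat was removed. The other 3 samples, macrophages cultured from bone marrow, are not compared here.

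miRNAs are short RNAs that bind messenger RNAs mainly through their seed, bases 2 to 8, and lower their output. Each is cut from a hairpin with a strand on either arm, of which usually 1 is kept, and the other was named with a star. The wall of the aorta is built of smooth muscle, with an endothelial lining on the inside and an adventitia of fibroblasts, nerves, fat and immune cells on the outside, and blood can remain in the lumen. Several miRNAs are known as marks of these cells. miR-143 and miR-145 are made from 1 transcript and hold smooth muscle in its contractile state, miR-126 lies in the endothelial gene Egfl7, and miR-451 is the main miRNA of red blood cells.

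Each assay gave a cycle threshold (Ct), which counts the PCR cycles needed to reach a set fluorescence, so an earlier Ct stands for more target. The panel held 517 mouse miRNA assays, and a miRNA was taken as detected at Ct 35 or earlier. The scaled level of a miRNA is its Ct subtracted from the mean Ct of that aorta, in cycles, where the mean is taken over every miRNA found in all 4 aortas. Assays can amplify with unequal efficiency, so the order of miRNAs is approximate and was not tested. Fewer cells of a type and less RNA per cell cannot be told apart in whole tissue.

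The sequences below are those of abundant miRNAs discussed in the results, 5′ to 3′, from RefSeq (GRCm38.p6), with the seed in capitals. They are shown because they give the seeds at the top of the aortic profile and the strands that are compared.
miR-24: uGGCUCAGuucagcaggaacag
miR-126-3p: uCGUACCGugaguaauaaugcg
miR-193b: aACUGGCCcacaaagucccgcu
miR-365: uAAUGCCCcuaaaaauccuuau
miR-214: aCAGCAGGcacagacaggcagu
miR-199a-3p: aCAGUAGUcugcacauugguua
miR-29a: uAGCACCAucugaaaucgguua
miR-30c: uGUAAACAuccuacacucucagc
miR-30a: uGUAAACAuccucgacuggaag
miR-30e: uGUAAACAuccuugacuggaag
miR-30a*: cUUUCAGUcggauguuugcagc
miR-30e*: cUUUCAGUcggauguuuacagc

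Most of the panel was detected in aorta. Aortas 1 to 4 gave 452, 416, 454 and 424 detected miRNAs, or 436.5 ± 19.3 (SD, n = 4). Of the 517 miRNAs, 386 (74.7%) were detected in all 4 aortas, 97 in 1 to 3 of them and 34 in none. The mean Ct over the 386 was 24.1, 25.4, 23.4 and 24.3, so that aorta 2 gave the least signal and also the fewest detected miRNAs. Over these 386 miRNAs Pearson's r between pairs of aortas lay between 0.91 and 0.95 and Spearman's rho between 0.92 and 0.96. The miRNAs share assay and sample, so these correlations are given as a description.

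Some wells stood far from the other aortas before any result is read. miR-488* crossed at Ct 23.8, 6.15, 23.7 and 12.7 in aortas 1 to 4, miR-878-5p at 5.57 in aorta 2 and in no other aorta, and miR-92a* at 9.95 in aorta 4, at 28.2 in aorta 1 and in neither of the others. Each of these 3 assays thus crossed very early in 1 or 2 aortas, and at Ct 23.7 or later or not at all in the others. The plant control assay, ath-miR159a, which has no mouse target, crossed at 27.9, 28.4 and 21.1 in aortas 1 to 3 and did not cross in aorta 4. A Ct in the range of that control is therefore no sure sign of the miRNA, and the share of such signal in other assays was not tested.

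The span of levels was wide. The mean scaled levels of the 386 miRNAs ran from 12.74 to -7.73 cycles, a span of 20.5 cycles. A mean Ct at or before 15 was reached by 4 miRNAs, one at or before 20 by 60 and one at or before 25 by 206.

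**Figure D1:**
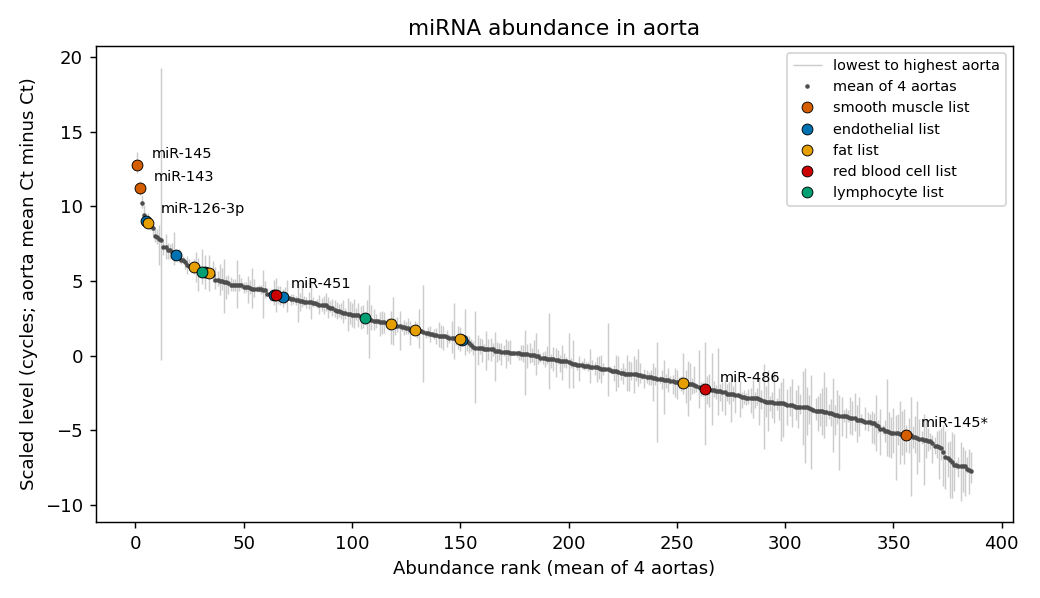
Mean scaled level (cycles) of the 386 miRNAs detected in all 4 aortas against abundance rank, with a grey line from the lowest to the highest aorta and members of 5 cell type lists in colour. miR-145 and miR-143 lead at 12.74 and 11.24, and the long line at rank 12 is miR-488*.

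The smooth muscle pair led the profile. miR-145, which favours the contractile state of smooth muscle, crossed at Ct 11.4, 11.8, 11.1 and 11.9 in aortas 1 to 4. It ranked first in aortas 1, 3 and 4 and second in aorta 2, where the miR-488* well came before it, and its scaled level was 12.74 ± 0.60 (SD, n = 4). miR-143, its partner on the same transcript, crossed at 13.4, 14.3, 12.0 and 12.6, for a level of 11.24 ± 0.39 (SD, n = 4). miR-145 lay above miR-143 in every aorta, by 1.51 cycles on average. The tissue label is matched by these smooth muscle marks at ranks 1 and 2.

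The star strand of miR-145 was near the bottom. miR-145* crossed at 30.6, 30.3, 28.6 and 28.9 and ranked 356. Its Ct lay 18.04 ± 0.96 cycles (SD, n = 4) after that of miR-145, the widest gap of the 97 strand pairs described further on.

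miR-24, miR-140, miR-126-3p and miR-193b took ranks 3 to 6. miR-24, made from 2 clusters that also hold miR-23 and miR-27, crossed at 14.1, 14.7, 13.5 and 14.0 (scaled level 10.24 ± 0.37, SD, n = 4). miR-140, best known from cartilage and lying within the gene Wwp2, crossed at 14.99, 15.37, 14.46 and 14.81 (9.41 ± 0.50, SD, n = 4). miR-145, miR-143, miR-24 and miR-140 kept this order in every aorta. From rank 4 downward no neighbours among the 25 most abundant kept 1 order in all 4 aortas, so the order of adjacent ranks below 4 is not settled by these aortas.

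The endothelial mark was among the most even. miR-126-3p crossed at 15.2, 16.1, 14.4 and 15.4 and ranked 5, at a scaled level of 9.04 ± 0.22 (SD, n = 4). miR-126-5p, the other arm of the hairpin, ranked 19 at 6.73 ± 0.20. The 2 strands lay 2.30, 2.32, 2.36 and 2.25 cycles apart in aortas 1 to 4, a gap whose SD was 0.048 cycles. The hairpin lies on chromosome 2 from 26591357 to 26591429 (GRCm38.p6), within the span of Egfl7.

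miR-222 and miR-221, which occur in endothelium and smooth muscle and share a seed, were far apart. miR-222 ranked 32 at 5.57 ± 0.93 and miR-221 ranked 151 at 1.04 ± 0.23 (SD, n = 4 for both), although their hairpins lie within 678 bases of each other on chromosome X. All 6 endothelial miRNAs measured were detected in all 4 aortas, beside 74.7% of the panel, and each was at its highest scaled level in aorta 2. Aorta 2 was the highest for 126 (32.6%) of all 386 miRNAs and for 29 (58%) of the 50 most abundant, so abundant miRNAs of other lists were also highest there.

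**Figure D2:**
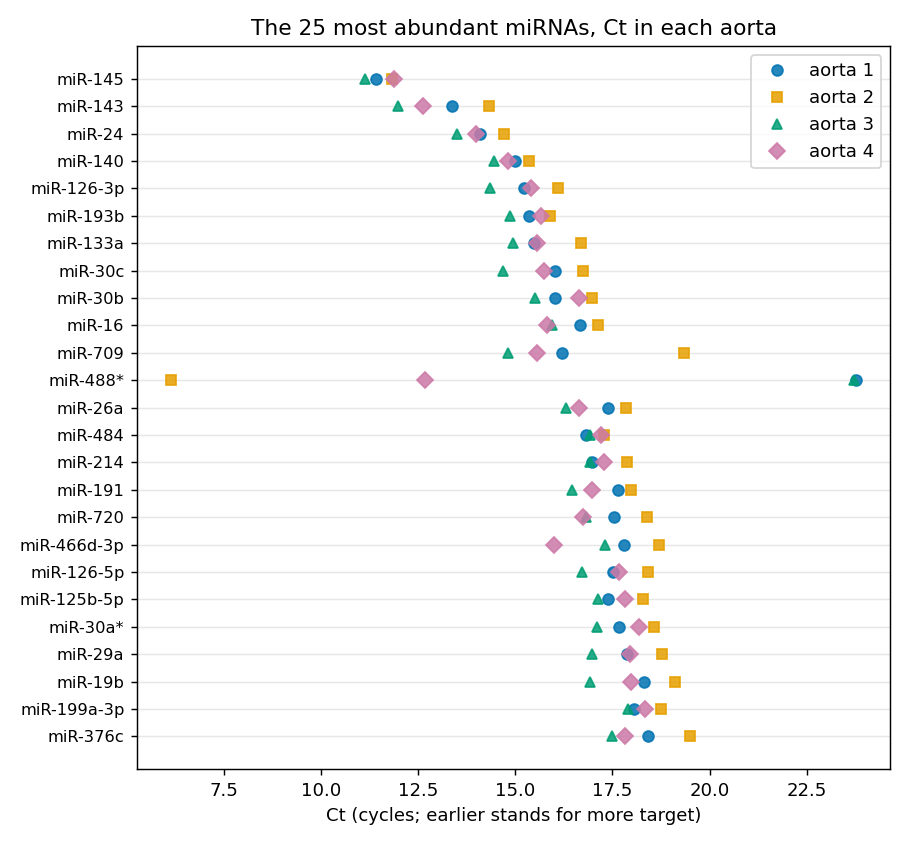
Ct (cycles, earlier stands for more target) of the 25 most abundant miRNAs in each aorta, a point per aorta, ordered by mean scaled level. Aorta 2 crosses latest for 23 of them, and miR-488* spreads from 6.15 to 23.8.

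Fat and muscle miRNAs followed directly. miR-193b, known from brown fat, crossed at Ct 15.4, 15.9, 14.9 and 15.7 and ranked 6 at 8.86 ± 0.46 (SD, n = 4). miR-133a, a miRNA of heart and skeletal muscle, crossed at 15.47, 16.68, 14.95 and 15.55 and ranked 7 at 8.65 ± 0.14 (SD, n = 4). miR-133a had one of the 10 smallest SDs of the 386 miRNAs, and its aortas spanned only 0.32 cycles after scaling.

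Other fat miRNAs differed in how even they were between aortas. miR-365, which shares a cluster with miR-193b on chromosome 16 (13449523 to 13453926, GRCm38.p6), ranked 27 at 5.93 ± 0.42. Its sequence is also made from a second locus on chromosome 11. miR-378, encoded in the gene of a regulator of mitochondria and active in fat and muscle, crossed at 18.54, 20.08, 16.67 and 19.96, earliest in aorta 3. After scaling, aorta 3 was highest at 6.72 and aorta 4 lowest at 4.32. All 7 fat miRNAs measured were detected in every aorta, beside 74.7% of the panel. Their median rank was 118, beside 193.5 for all miRNAs detected in every aorta.

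Among muscle miRNAs, miR-1, a miRNA of heart and skeletal muscle, crossed at 19.8, 19.7, 16.8 and 17.9. Aortas 3 and 4 were above aortas 1 and 2 after scaling (6.55 and 6.36 against 4.34 and 5.74), and the rank on the mean was 29. The other striated muscle miRNAs lay below miR-133a and miR-1. miR-133b ranked 95, miR-206, of skeletal muscle, 227, miR-208, from a heart myosin gene, 347, and the star strand miR-133a* 377. miR-499 was detected in 2 aortas and miR-208b in 1. Of the 8 striated muscle miRNAs measured, 6 were detected in all 4 aortas, and their median rank was 161, or 95 at a detection limit of Ct 32, where 5 remained.

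All 11 fibroblast miRNAs measured were detected in every aorta, beside 74.7% of the panel. Their median rank was 72, beside 193.5 for all miRNAs detected in every aorta. Of these, 3 were among the 25 most abundant and 5 among the 50. miR-214, from a transcript antisense to Dnm3, crossed at 17.0, 17.9, 16.9 and 17.3 and ranked 15 (7.05 ± 0.45, SD, n = 4). miR-29a, which represses collagens, crossed at 17.88, 18.77, 16.98 and 17.95 and ranked 22 (6.42 ± 0.19, SD, n = 4). miR-199a-3p ranked 24 at 6.05 ± 0.50, and its other arm miR-199a-5p ranked 144. Both arms are made from a locus near that of miR-214 on chromosome 1 and from a second locus on chromosome 9. The related miR-29c and miR-29b, which share the seed of miR-29a, ranked 104 and 225.

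Both red blood cell miRNAs measured were detected in every aorta, beside 74.7% of the panel, and differed between aortas. miR-451, of red blood cells, crossed at Ct 21.1, 20.4, 20.5 and 19.1 and ranked 65 on the mean. After scaling it was higher in aortas 2 and 4 (5.05 and 5.18) than in aortas 1 and 3 (2.99 and 2.93). miR-486, of red blood cells and muscle, crossed at 30.1, 27.4, 25.4 and 23.4, a span of 6.71 cycles, and ranked 263. Aorta 4 had the highest scaled level of both, at 5.18 and 0.88, and miR-486 was lowest in aorta 1 at -5.98.

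White blood cell miRNAs were also seen in every aorta. miR-150, of mature lymphocytes, crossed at 19.3, 20.4, 16.2 and 18.8. Aorta 3 stood highest at a scaled level of 7.15, against 4.81 to 5.46 in the others, and miR-150 ranked 12 in aorta 3 and 36 to 46 elsewhere. miR-223, of granulocytes and monocytes, crossed at 18.7, 19.5, 18.9 and 19.8 and ranked 37 (5.07 ± 0.71, SD, n = 4). miR-146a, a brake on inflammatory signalling, and miR-142-3p, of blood cells at large, ranked 46 and 66, and miR-155, which rises in activated immune cells, ranked 196. miR-142-5p, the other arm of the miR-142 hairpin, ranked 274, and miR-181a, of developing lymphocytes, ranked 106. All 5 myeloid miRNAs and both lymphocyte miRNAs measured were detected in all 4 aortas, beside 74.7% of the panel.

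**Figure D3:**
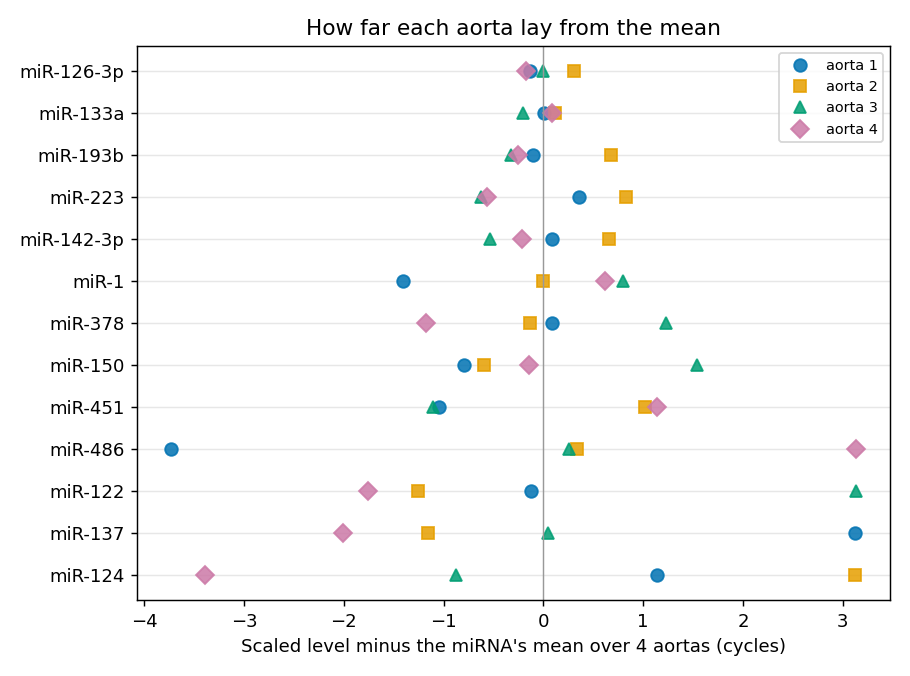
Scaled level of 13 miRNAs in each aorta minus the miRNA's mean over the 4 aortas (cycles), a point per aorta. miR-126-3p and miR-133a stay within 1 cycle of their mean, whereas miR-486, miR-122, miR-137 and miR-124 each have an aorta over 3 cycles away.

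miRNAs of other organs were detected as well. miR-203, of the skin epithelium, ranked 99 and miR-200a, which keeps epithelial cells in sheets, ranked 121. These were the highest of the 7 epithelial miRNAs, all detected in every aorta, with a median rank of 164. miR-141, of the miR-200 family, and miR-205, of skin and gland epithelium, ranked 354 and 357. miR-122, the main miRNA of liver cells, crossed at 25.2, 27.6, 21.2 and 27.0, earliest in aorta 3. At a scaled level of 2.21 aorta 3 lay above the others, which ran from -2.68 to -1.05. Aorta 3 was also the highest for miR-150 and miR-378, and for 82 (21.2%) of all 386 miRNAs. The plant control assay was likewise earliest in aorta 3, at Ct 21.1, close to miR-122 there, but did not cross in aorta 4. Whether the miR-122 signal in aorta 3 is specific was not tested.

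Several nerve miRNAs were highest in aorta 1. miR-137, of neurons, crossed at 21.2, 26.8, 23.6 and 26.5, and aorta 1 was highest at a scaled level of 2.88. miR-138, also of neurons, was at 3.13 in aorta 1 and between 0.03 and 0.49 in the others. miR-124, the most abundant miRNA of brain neurons, did not follow them: it crossed at 21.4, 20.7, 22.7 and 26.1, highest in aorta 2. Of the 8 nerve miRNAs detected in all 4 aortas, 5 were highest in aorta 1. Aorta 1 was the highest for 84 (21.8%) of all 386 miRNAs. With these cut by level into 5 groups, that share rose from 5.13% in the highest group to 35.1% in the lowest. The median rank of the nerve miRNAs was 218.5. miR-9, of neurons and their precursors, was even, at 0.52 ± 0.47 (SD, n = 4).

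Early embryo, pancreas and testis miRNAs were the least detected lists. Of 18 early embryo miRNAs, 1 was detected in all 4 aortas (miR-294* at rank 284), 13 in 1 to 3 aortas and 4 in none. Of 19 testis miRNAs, 6 were detected in all 4 aortas, at ranks from 303 to 374, and 5 in none. Of 4 pancreas miRNAs, miR-375, of islet cells, was the only one detected in all 4 aortas, at rank 222. These shares of 5.56%, 31.6% and 25%, for early embryo, testis and pancreas, stand beside 74.7% for the whole panel. Full detection was not limited to lists of the vessel wall, fat and blood. All 7 epithelial, 4 liver and gut and 3 sensory organ miRNAs measured were also detected in every aorta.

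**Figure D4:**
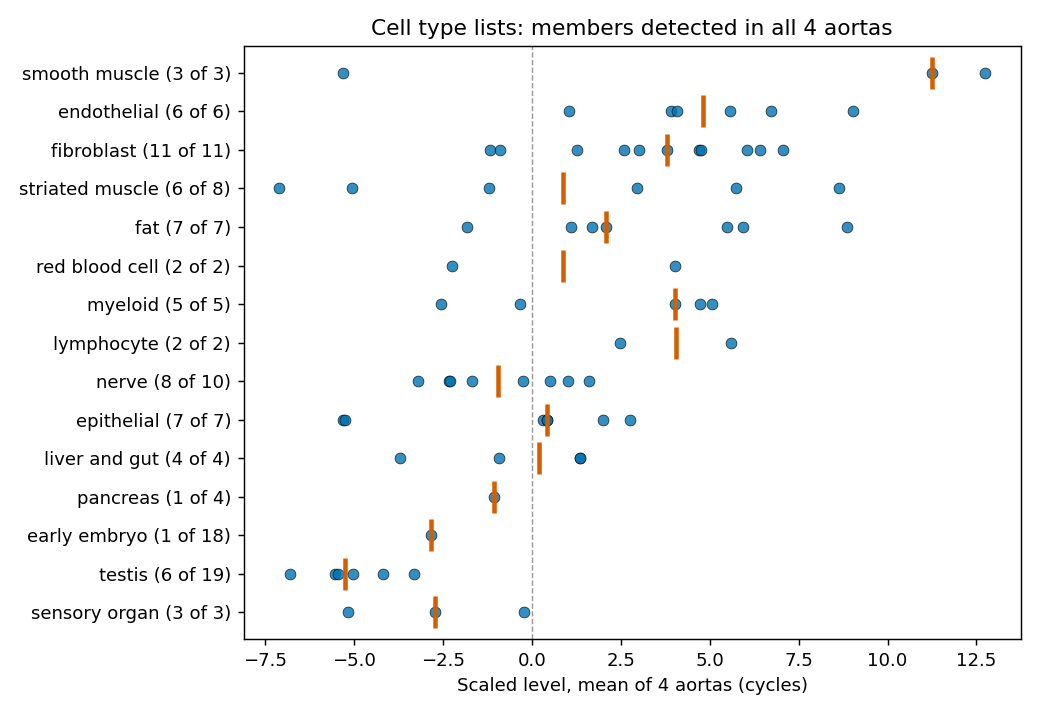
Mean scaled level (cycles) of the members of 15 cell type lists detected in all 4 aortas, a point per miRNA, with the list's median as an orange bar and the number detected of those measured in brackets. The smooth muscle pair lies above 11 cycles, and the detected testis miRNAs all lie below -3.

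Of the 25 most abundant, 9 were on a cell type list and 16 on none. miR-30c and miR-30b, of a family present in most tissues and high in heart and kidney, crossed at 16.0, 16.7, 14.7 and 15.7 and at 16.0, 17.0, 15.5 and 16.6, and ranked 8 and 9. miR-16, which slows the cell cycle, crossed at 16.7, 17.1, 15.9 and 15.8 and ranked 10. miR-709, a mouse miRNA, ranked 11 but was late in aorta 2 at 19.3, against 14.8 to 16.2 in the others. In all, 8 miRNAs were among the first 10 of every aorta and 17 of the 25 were among the first 25 of every aorta.

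Of the 50 most abundant, 35 had a mature sequence in RefSeq as matched here, with 29 distinct seeds, and 11 of the 35 shared a seed with another. The other abundant miRNAs, miR-30b among them, were not grouped by seed here. The largest group was miR-30c, miR-30a and miR-30e, which share GUAAACA and had levels of 8.51, 5.51 and 4.61. A further 4 seeds were shared by 2 miRNAs each: miR-16 with miR-195, miR-125b-5p with miR-125a-5p, miR-99b with miR-100, and miR-30a* with miR-30e*. The first base was U in 23 of the 35 (65.7%) and in 40.9% of the 1679 mature miRNA names in the RefSeq table. The median GC content was 45.5% in the 35 and 52.2% in the table. The 1679 names reach beyond the 517 assays of the panel. Abundance and the choice of assays therefore cannot be told apart in these 2 comparisons.

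Members of 1 cluster were not at 1 level. miR-24 lay above miR-27a and miR-23a, with which it shares a hairpin cluster of 404 bases on chromosome 8 (10.24 against 3.51 and 3.71), and above miR-27b and miR-23b on chromosome 13 (3.45 and 2.37). miR-27a was among the 10 miRNAs with the smallest SD, at 0.13 cycles. The cluster of miR-99b, let-7e and miR-125a-5p on chromosome 17, within the span of Spaca6, was close to level on average, at 5.42, 5.02 and 4.97. Within it the aortas differed: let-7e was highest in aorta 4 (6.14) and lowest in aorta 1 (4.06), while miR-99b and miR-125a-5p were highest in aorta 2.

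Both strands of a hairpin were detected in all 4 aortas for 97 pairs. In 86 of them the same strand was earlier in every aorta, with a median gap of 3.72 cycles over all pairs and a median SD of the gap of 0.75 cycles. Of the 73 pairs named by a star, the star strand was later in every aorta in 51, earlier in every aorta in 13, and of mixed order in 9. miR-30a* crossed before miR-30a by 1.12, 1.11, 0.85 and 0.58 cycles, and miR-30e* before miR-30e by 1.53, 1.34, 0.86 and 0.36 cycles. Their shared seed, UUUCAGU, thus stood at ranks 21 and 30. The widest such gap was that of miR-7a*, 7.94 ± 0.45 cycles (SD, n = 4) before miR-7a, followed by miR-877* and miR-467a*. A gap compares 2 assays, and their efficiencies were not measured.

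The spread between aortas grew toward low levels. The median SD over the 386 miRNAs was 0.605 cycles, 159 (41.2%) had an SD under 0.5 and 108 (27.98%) an SD over 1. With the miRNAs cut by level into 5 groups of near equal size, from highest to lowest, the median SD was 0.46, 0.48, 0.55, 0.73 and 1.05 cycles. Over 20 pairs of repeated wells of control assays in the aortas, the median difference between wells was 0.48 cycles and the largest was 3.22. The SD of 1 well from all pairs, the largest difference included, was 0.69 cycles. The control assays are small RNAs other than miRNAs, so they set only a rough mark for the error of 1 well.

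The most even miRNA was miR-485*, from the imprinted Dlk1-Dio3 region, at 1.31 ± 0.02 (SD, n = 4) after raw Cts of 22.79, 24.14, 22.10 and 23.00. miR-700, miR-337-5p and miR-31* followed with SDs of 0.07, 0.08 and 0.09 cycles. These are the smallest SDs of all miRNAs detected in every aorta, and they lie below the SD of 1 well of 0.69 cycles. At the other end, miR-488* had an SD of 9.44 cycles, and miR-207, miR-376c*, miR-699, miR-467e*, miR-486, miR-124, miR-503, miR-141* and miR-764-5p had SDs from 2.41 to 2.97. miR-503, a relative of miR-16, crossed at 27.2, 32.6, 24.2 and 27.1, earliest in aorta 3 and latest in aorta 2.

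**Figure D5:**
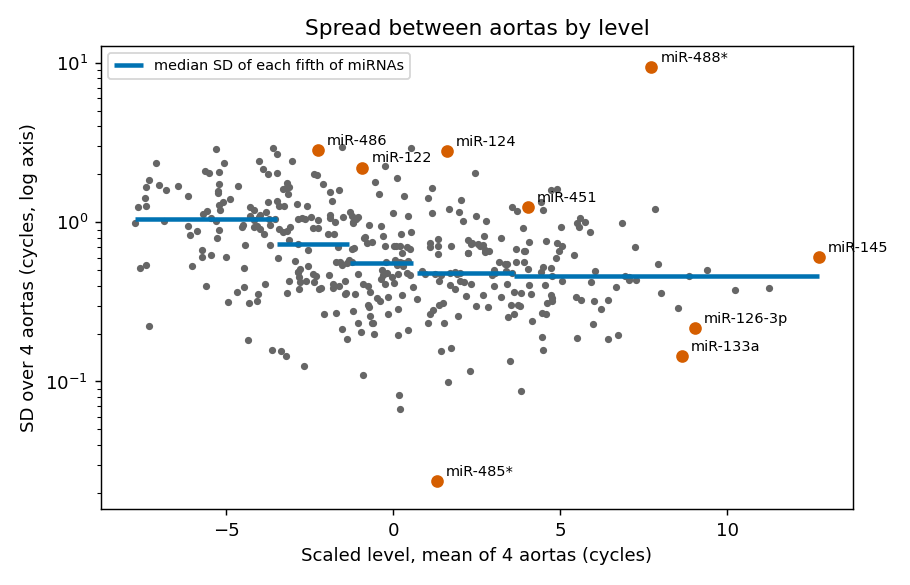
SD over the 4 aortas (cycles, log axis) against mean scaled level (cycles), a point per miRNA detected in all 4 aortas, with the median SD of each of 5 level groups as a blue line. The median SD falls from 1.05 in the lowest group to 0.46 in the highest.

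Detection in part of the aortas was not always a matter of late Ct. Of the 97 miRNAs detected in 1 to 3 aortas, 20 crossed at or before Ct 25 in an aorta and did not cross at all in another. miR-719 crossed at 19.6, 21.1 and 17.5 in aortas 1 to 3 and not in aorta 4, and miR-546 and miR-670 showed the same pattern. The plant control assay, which has no mouse target, also crossed in aortas 1 to 3 (27.9, 28.4 and 21.1) and not in aorta 4. An early Ct in some aortas is therefore no sure sign of the miRNA, and its source was not tested. miR-346 crossed at 20.8 and 23.3 in aortas 3 and 4 only, and miR-202-5p at 19.4 and 22.8 in aortas 1 and 2 only. Of the 34 detected in 3 aortas, 16 lacked aorta 2, 14 lacked aorta 4, 3 lacked aorta 1 and 1 lacked aorta 3. Closest to the limit by mean Ct, with uncrossed wells at 40, were miR-873, miR-296-3p and miR-294 inside it (mean Ct 34.89, 34.95 and 34.98). Just outside it were miR-590-5p, miR-367 and miR-292-3p (35.1, 35.2 and 35.3). Detection was set well by well and does not follow these means. miR-873, miR-296-3p and miR-294 were detected in 2 aortas each, and miR-292-3p in 3.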

How the data were processed

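The authors' deposited table holds Ct values of quantitative PCR assays, with uncrossed wells listed at 40. The instrument, its threshold and any preamplification step were not given in the sources used here. Log2-scale values (delta Ct) were also deposited by the authors, and in the aortas these equalled Ct minus an aorta constant, the average well of MammU6 and snoRNA202. Total RNA came from a mirVana kit, per the labels' protocols.

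The 4 aorta columns were used. Scaled levels, ranks (1 is the most abundant) and SDs were computed in Python 3.11.15 with pandas 2.3.3 and numpy 2.4.6, with plots in matplotlib 3.10.9. The calculation was tested on simulated data. No groups were compared, so no test was run, and 4 samples limit the precision. The 50 most abundant miRNAs and list members were matched by name to RefSeq mature strands; names without an arm were taken as the strand that carried the plain name in older nomenclature. Host genes are those whose span holds the hairpin, with strand not considered.

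Members and lists were chosen with earlier results of these data known. miRNAs were selected as the 25 most abundant, list members, the 10 largest and 10 smallest SDs, and those nearest the detection limit by mean Ct. Strand pairs and seed groups were selected among the 50 most abundant. Not all selected miRNAs are discussed in the text. Clusters, wells that stood apart, counts of the highest aorta and other miRNAs were chosen after their values were seen. Alternatives covered the detection limit, the scaling, repeated wells, the median in place of the mean, and leaving out each aorta.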

Additional observations from a re-analysis of the deposited data

Results flagged for a closer look

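In 8 of 122 results tried, 1 aorta lay far from the other 3 relative to the range of the 4, a criterion that chance meets in about 1 of 20 groups. The scaled level of miR-126-5p in aorta 2 was 7.02, against 6.61 to 6.67 in the others, a small gap in cycles. Aorta 3 was high for miR-378*, of fat and muscle, at 0.20, and for miR-182, of sensory organs, at 0.63. Aorta 2 was high for miR-208, of heart muscle, at -1.56, and low for miR-191* and miR-30b*, at -7.19 and -5.49. Aorta 1 was high for miR-138, of neurons, at 3.13, and aorta 3 was low for miR-141*, of epithelium, at -7.68.

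The plant control assay, outside the miRNA measurement, crossed at Ct 27.942, 28.424 and 21.122 in aortas 1, 2 and 3. It did not cross in aorta 4 or in 2 of the 3 macrophage samples, and crossed at 31.4 in the remaining one.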

How the results depend on the processing

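The ranks of the 120 selected miRNAs that have a rank were identical under the deposited values, snoRNA202 scaling and no scaling. These shift all miRNAs of an aorta alike. With the median in place of the mean, 24 of the 25 most abundant stayed among the first 25, as they did without any 1 aorta. The rank of miR-488* rested on single aortas: 12 on the mean, 66 without aorta replicate 2 and 3 without aorta replicate 3. The number detected in every aorta was 386, and 359, 388 and 266 at limits of Ct 32, 38 and 28. At Ct 28, the number detected in none rose from 34 to 119 and the mean per aorta was 331.5. Leaving out 1 aorta gave 387 to 402 detected in every remaining one and 36 to 45 in none. The median SD was 0.60 cycles, 0.57 to 0.59 without 1 aorta, 0.82 with the deposited values and 0.99 without scaling, where differences in total signal remain in it. The other alternatives can change ranks. Under them, 31 ranks of single miRNAs or median ranks of lists moved by more than the SD between aortas, and 659 did not. These counts do not show that ranks are stable. The SD comes from the same aortas, so leaving 1 out or taking the median seldom moves a rank past it. miR-488* at rank 66 without aorta replicate 2 counted as unmoved, since its ranks had an SD of 105. miR-16 counted as moved from rank 10 to 11 with the median, since its ranks had an SD of 0. Using only the first of repeated wells changed none of the main values, since no miRNA assay was repeated. No paired analysis was possible because a single group is described and no test was run.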
